A study of Rattus norvegicus with 6 samples.

Results

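Adipocyte identity and lipid storage genes were followed in the tissue that formed around cellulose implants under rat skin, as a set of 40 named genes covering adipokines, lipid droplet proteins, uptake, triglyceride synthesis, lipolysis and their regulators. Members were found by gene symbol in the array's probe annotation. Of the 40 genes 36 had a probe, out of 13336 named genes on 22517 probes, and 32 were bright enough to be tested. Plin1, Plin4, Gk and Pnpla3 have no probe named for them here and were not analysed. The implants were uncoated cellulose placed subcutaneously in Sprague-Dawley rats aged 10 weeks, and the tissue is labelled as granulation tissue. Day 1 (24 hours) is represented by rats 1, 2 and 3, and day 3 (72 hours) by rats 4, 6 and 7, with 1 Illumina array of biotin-labelled RNA per rat. Each array is a different animal, and no implant-free or fat tissue sample was analysed here.

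White adipocytes store energy as triglyceride in a large lipid droplet, release fatty acids by stepwise lipolysis and secrete hormones such as adiponectin. Brown and beige adipocytes hold many small droplets and burn fatty acids for heat through the mitochondrial uncoupling protein Ucp1. Fat pads and thin sheets of skeletal muscle lie in the subcutaneous layer of the rat. Several genes of the set are also used by macrophages and endothelial cells, which handle lipid during tissue repair.

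All levels are log2 intensities after background correction, with an offset of 50 added, and quantile normalisation. A step of 1 is a doubling of the corrected signal with that offset, which narrows differences of dim genes. The background limit on this scale was 6.44, and the brightest probe reached 15.47. All arrays share 1 intensity distribution, with 11711 of 22517 probes above the limit on each. Of 9 measured fibroblast markers 9 were above the limit in every rat, as were 10 or 11 of 12 macrophage markers. Across tested probes the day 3 rats correlated with each other at r = 0.988 to 0.992. Rats 1 and 2 correlated at r = 0.991, and rat 3 with these at r = 0.956 and 0.963, across probes, which are not independent replicates. Rat 3 stands apart in the genes described here, so the results on the days that rest on the members are given with and without it.

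Most fat cell genes were highest in 1 animal. Rat 3, from day 1, had the highest level of the 6 rats in 31 of 36 measured members (86.1%), against 17.2% of all probes. It exceeded each of the other 5 rats by more than 1 on the log2 scale in 22 members. The share of all probes doing so was not counted, here or for the gene lists below. Rat 3 exceeded the median of the 6 rats by more than 1 in 24 members, against 2.01% of all probes. With cyclic loess, another normalisation, 31 members were again highest in rat 3. The count was also 31 without background correction and with an offset of 16. The deposited arrays already shared 1 distribution, so those settings keep the order of rats within a probe nearly fixed. Their count could hardly differ. Rat 3 minus the mean of rats 1 and 2 had a median of 2.05 over the 36 members and of -0.03 over all probes. Among the 10 probes with the largest such excess on the whole array 5 belonged to members, which were Ucp1, Gpd1, Pck1, Cidea and Slc2a4. Rat 3 was chosen for these statements after its values were known, and 1 rat against others allows no test. The labels place the implants under the skin and name no body site, and whether fat tissue came along with the implant of rat 3 was not tested. In bulk tissue, more cells of a type and more RNA per cell cannot be told apart.

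**Figure D1:**
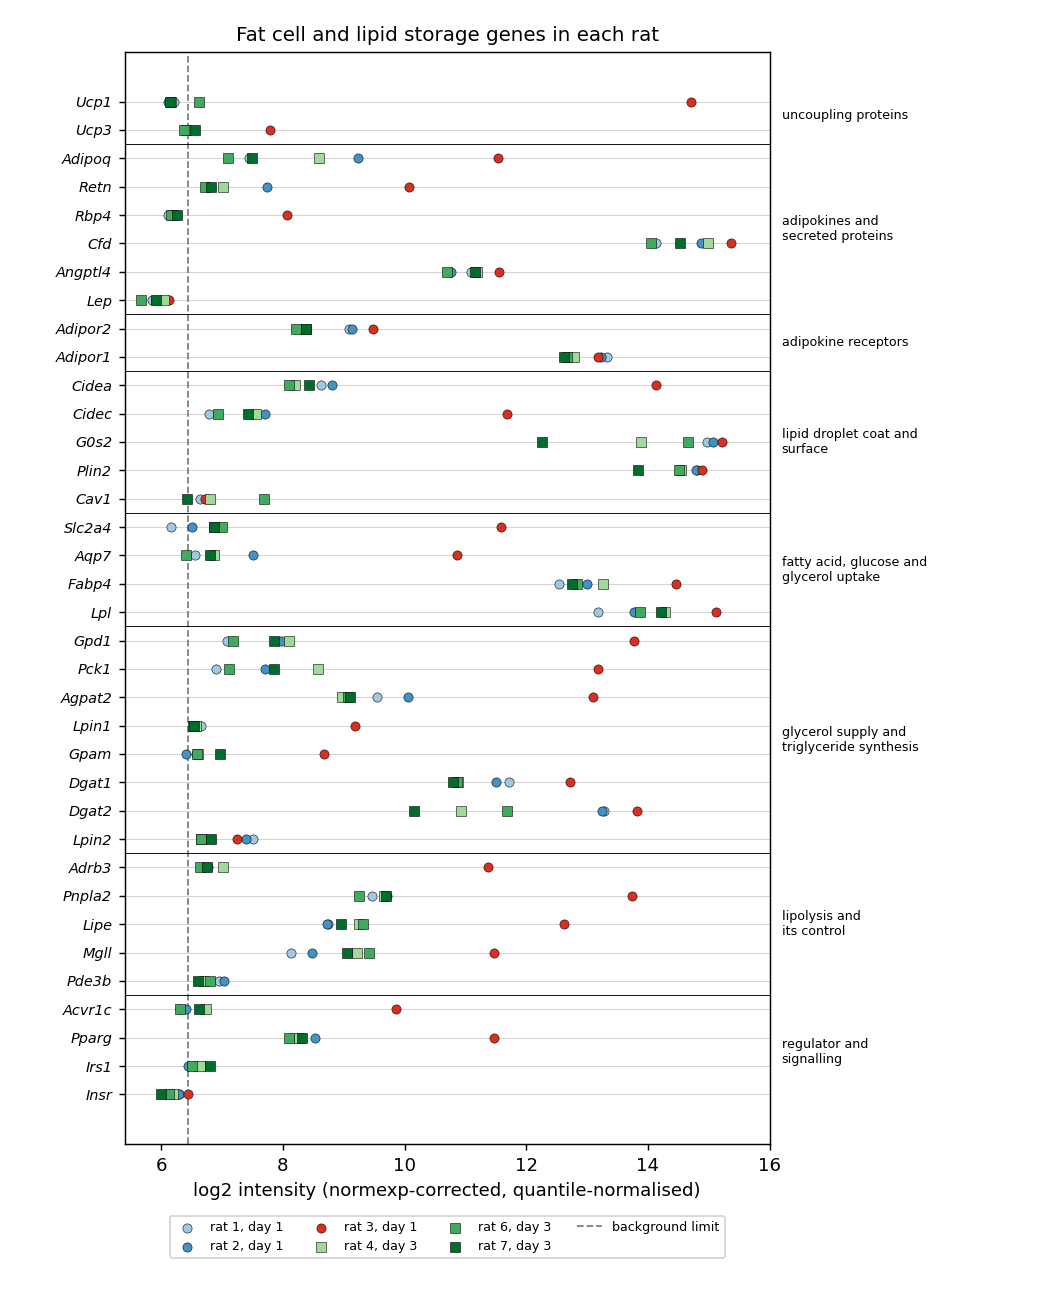
Log2 intensity (x axis) of the 36 members with a probe (rows, grouped by role), with 1 point per rat: circles for day 1, squares for day 3, and the dashed line for the background limit of 6.44. The red circle of rat 3 lies to the right of the other 5 rats in 31 of 36 rows, by more than 1 in 22 of them.

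Ucp1, the proton carrier that makes brown and beige fat produce heat, showed the largest excess of any probe on the array. At day 1 it read 6.21, 6.12 and 14.70 in rats 1, 2 and 3, and at day 3 it read 6.16, 6.62 and 6.14 in rats 4, 6 and 7. Only rats 3 and 6 were above the background limit, and rat 6 was close to it. In rat 3 the corrected signal with its offset was at least 308-fold higher than in rats 1 and 2, taken with those rats at the limit. Because 2 of 6 arrays were above the limit where 3 were required, Ucp1 was not in the test between days. Ucp3, a related carrier found mainly in muscle and brown fat, was 7.78 in rat 3 and between 6.37 and 6.56 in the other rats.

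The promoters of Ucp1 and Pck1 are shown because these members ranked 1 and 4 of all probes by the excess of rat 3. The member Gpd1, at rank 3, had no promoter window among those given. The windows run from 250 bases before to 50 bases after the RefSeq start on GRCr8, 5′ to 3′ on the gene's strand. Ucp1 is at chr19:41721372-41721671 on the minus strand and Pck1 at chr3:182348322-182348621 on the plus strand. Capitals mark 3 motifs, each searched on both strands. They are TATAAA (the TATA box), the core of many nuclear receptor sites, AGGTCA, and the core of the cyclic AMP response element, TGACG.
Ucp1: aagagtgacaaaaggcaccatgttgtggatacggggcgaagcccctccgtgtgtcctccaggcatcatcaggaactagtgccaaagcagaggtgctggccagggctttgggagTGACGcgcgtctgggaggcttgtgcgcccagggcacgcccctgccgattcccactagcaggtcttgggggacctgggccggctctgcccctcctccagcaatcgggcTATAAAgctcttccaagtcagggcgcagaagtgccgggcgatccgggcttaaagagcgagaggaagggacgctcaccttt
Pck1: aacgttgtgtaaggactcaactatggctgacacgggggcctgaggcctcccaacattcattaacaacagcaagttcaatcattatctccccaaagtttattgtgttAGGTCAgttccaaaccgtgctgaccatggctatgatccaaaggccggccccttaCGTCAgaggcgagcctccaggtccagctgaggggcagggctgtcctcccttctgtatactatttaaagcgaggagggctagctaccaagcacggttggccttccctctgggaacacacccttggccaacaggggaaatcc
The Ucp1 window held TATAAA 30 bases and TGACG 137 bases before the start, and the Pck1 window held AGGTCA 144 bases before it and TGACG, in reverse, 90 bases before it. Promoter windows were given for 30 of the 40 members. AGGTCA was found in 4 of these 30 and in 15.7% of 27457 rat windows. TGACG was found in 8 of 30, against 22.0%, and TATAAA in 5 of 30, against 14.3%. The direct repeat of the receptor core with a single spacer base was in 0 of 30 and in 0.412% of all windows. The full element TGACGTCA, which contains TGACG, was in 1 of 30, against 1.91%. The motif TTGCNNAA of C/EBP factors was in 6 of 30, against 10.5%. The GC box GGGCGG was in 19 of 30, against 34.9%. The CCAAT box was in 10 of 30, against 37.7%, and the E-box CANNTG in 22 of 30, against 71.6%. A match is a description of the letters in a window and not a binding site.

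Other genes of heat-producing fat, listed after the values were seen, split. Of 13 such genes 11 had a probe, and 6 were higher in rat 3 than in each other rat by more than 1. Kcnk3, a potassium channel of brown fat, was 8.82 in rat 3 and between 6.13 and 6.28 in the other rats. Otop1, a proton channel, was 8.13 in rat 3 and 6.27 to 6.57 elsewhere. Cpt1b, which brings fatty acids into mitochondria of muscle and brown fat, was 8.72 in rat 3, with an excess of 2.28 over rats 1 and 2. Elovl3, a fatty acid elongase, and the transcription factor Zic1 were below the limit in every rat, and Dio2, which activates thyroid hormone, lay between 6.63 and 6.86 in all rats.

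Among secreted proteins, Adipoq, the fat cell hormone adiponectin, was 7.44, 9.23 and 11.54 in rats 1, 2 and 3. At day 3 it was 8.60, 7.10 and 7.50 in rats 4, 6 and 7. The days overlapped, rat 2 lay between rats 1 and 3, and rat 4 was the highest at day 3. Retn, the adipokine resistin, was 6.76, 7.74 and 10.07 at day 1 and 7.01, 6.72 and 6.82 at day 3. Rbp4, a retinol carrier made by liver and fat, was above background in rat 3 alone, at 8.07, at least 3.10-fold over rats 1 and 2. Lep, the fat cell hormone leptin, was below background in every rat, rat 3 included, with levels of 5.67 to 6.13.

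Cfd and Angptl4 did not follow that pattern as closely. Cfd, the complement protease adipsin, was bright everywhere, at 14.13, 14.87 and 15.36 at day 1 and 14.99, 14.04 and 14.53 at day 3. Rat 3 was highest, by 0.37 over rat 4, but its level is near the top of the array's range. Angptl4, which inhibits lipoprotein lipase, lay between 10.69 and 11.55 with rat 3 highest; a second Angptl4 probe lay between 6.37 and 6.59, near the limit, with no excess in rat 3.

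On the lipid droplet, Cidea and Cidec, proteins that fuse droplets, were among the members furthest apart. Cidea was 8.63, 8.81 and 14.13 in rats 1, 2 and 3, and 8.20, 8.09 and 8.43 in rats 4, 6 and 7. Rat 3 held 42.5-fold the mean of rats 1 and 2, and the remaining 5 rats spanned less than 1 on the log2 scale. Cidec was 6.79, 7.71 and 11.69 at day 1 and 7.56, 6.93 and 7.42 at day 3.

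Plin2, the droplet coat protein used by most cells including lipid-laden macrophages, was near the top of the array in all rats. It was 14.81, 14.80 and 14.89 at day 1 and 14.54, 14.51 and 13.83 at day 3. The days did not overlap, yet the difference of -0.54 (SE 0.20) missed the test (adjusted p = 0.104, limma; 0.125 without rat 3). G0s2, an inhibitor of the lipase Pnpla2, was 14.97, 15.07 and 15.22 at day 1 and 13.89, 14.65 and 12.26 at day 3 (difference -1.49, SE 0.55, adjusted p = 0.105, limma; 0.121 without rat 3); a second G0s2 probe was below background in every rat. Cav1, a coat protein of membrane pits in endothelium and fat, was 7.69 in rat 6 and between 6.42 and 6.80 in the other rats, and its second probe was highest in rat 6 as well.

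Uptake genes differed in how far rat 3 stood above the other rats. Slc2a4, the insulin-responsive glucose carrier of fat and muscle, was 6.16, 6.51 and 11.59 at day 1 and 6.86, 6.99 and 6.86 at day 3. Aqp7, the glycerol channel of fat cells, was 6.55, 7.51 and 10.86 at day 1 and 6.87, 6.41 and 6.81 at day 3. Fabp4, a fatty acid carrier of fat cells, macrophages and small vessels, was high in every rat, at 12.54, 12.99 and 14.46, then 13.26, 12.84 and 12.75. Lpl, the lipase that frees fatty acids from blood lipoproteins, was 13.19, 13.77 and 15.12 at day 1 and 14.28, 13.87 and 14.21 at day 3. Against the mean of rats 1 and 2, rat 3 held 3.25-fold for Fabp4, 3.12-fold for Lpl and 14.2-fold for Aqp7, and at least 34.7-fold for Slc2a4, with rat 1 taken at the limit. The rat 3 level of Lpl lies near the top of the array's range.

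Among the members, the glycerol supply genes Gpd1 and Pck1 had the largest rat 3 excesses after Ucp1. Gpd1, which makes glycerol 3-phosphate from glycolysis, was 7.08, 7.96 and 13.77 at day 1 and 8.10, 7.18 and 7.85 at day 3. Pck1, which makes it from smaller precursors in fat and drives glucose production in liver, was 6.90, 7.70 and 13.19 at day 1 and 8.58, 7.12 and 7.85 at day 3. For both genes rat 4 was the next highest after rat 3, so the days overlapped.

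The later steps of triglyceride synthesis held members with and without the rat 3 excess. Agpat2, an acyltransferase of the second step, was 9.54, 10.06 and 13.09 at day 1 and 8.97, 9.07 and 9.10 at day 3. Gpam, the acyltransferase of the first step in mitochondria, was 8.68 in rat 3 and between 6.40 and 6.96 elsewhere. Lpin1, a phosphatidate phosphatase, was 9.18 in rat 3 and between 6.52 and 6.65 elsewhere, whereas its relative Lpin2 was lower in rat 3 than in rats 1 and 2.

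Of 5 measured genes of lipolysis 4 were far higher in rat 3 than in each other rat. Pnpla2, the lipase of the first step, was 9.46, 9.71 and 13.74 at day 1 and 9.67, 9.25 and 9.70 at day 3. Lipe, the hormone-sensitive lipase, was 8.74, 8.72 and 12.62, then 9.25, 9.31 and 8.96. Mgll, which releases the last fatty acid, was 8.13, 8.48 and 11.47, then 9.21, 9.42 and 9.06. Adrb3, the adrenaline receptor that starts lipolysis in rodent fat cells, was 6.70, 6.76 and 11.37, then 7.01, 6.64 and 6.75. Pde3b, the phosphodiesterase through which insulin restrains lipolysis, lay between 6.60 and 7.04 with no excess in rat 3.

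Of the regulators, Pparg, the nuclear receptor that directs fat cell formation, was 8.13, 8.53 and 11.47 at day 1 and 8.27, 8.09 and 8.32 at day 3. Acvr1c, an activin receptor of fat cells, was 9.85 in rat 3, at least 10.7-fold over rats 1 and 2, which were below background; rats 4, 6 and 7 had 6.74, 6.31 and 6.62. Irs1, an adaptor of the insulin receptor, lay between 6.44 and 6.80, and Insr, the receptor, was above the limit in no rat.

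Smaller differences separated other rats within a day. Rat 2 exceeded rat 1 by more than 0.5 in 9 of 36 members, against 1.00% of all probes. The largest of these was Adipoq, by 1.79, followed by Retn (0.97), Aqp7 (0.96), Cidec (0.92), Gpd1 (0.88) and Pck1 (0.80). Rat 4 exceeded the mean of rats 6 and 7 by more than 0.5 in 4 members, against 1.57% of probes, and these were Adipoq (1.30), Pck1 (1.10), Cfd (0.70) and Gpd1 (0.59). Ucp1, Cidea, Slc2a4 and Adrb3 differed by at most 0.35 in either of these comparisons. Deposited intensities of the 11 adipocyte-restricted genes, 9 with a probe, summed to 19267, 32048 and 69565 for rats 1, 2 and 3. The day 3 sums were 34651, 18376 and 25245 for rats 4, 6 and 7. Cfd, bright in every rat, was then left out after the values were seen. For the 10 other genes, of which 8 had a probe, the sums were 1288, 1997 and 27531 for rats 1, 2 and 3. Without Cfd the day 3 sums were 2107, 1468 and 1580 for rats 4, 6 and 7.

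Skeletal muscle markers divided the rats differently. Acta1, the actin of skeletal muscle, was 12.65, 12.34 and 12.66 in rats 2, 3 and 6, and 6.62, 6.45 and 6.76 in rats 1, 4 and 7. The 12 measured muscle markers summed to intensities of 16946 to 19499 in rats 2, 3 and 6 and of 1482 to 1587 in rats 1, 4 and 7, and Myh2 and Myh4 were below the limit in every rat. Rat 3 therefore shared its muscle level with rats 2 and 6, which had Ucp1 levels of 6.12 and 6.62. Slc2a4, which muscle also uses, was 6.51 and 6.99 in rats 2 and 6. Cox8b, a respiratory chain subunit of muscle and brown fat from the list chosen after seeing values, was 12.90 in rat 3, 8.08 and 7.73 in rats 2 and 6, and below the limit in rats 1, 4 and 7. The part of muscle in the other results was not tested.

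**Figure D2:**
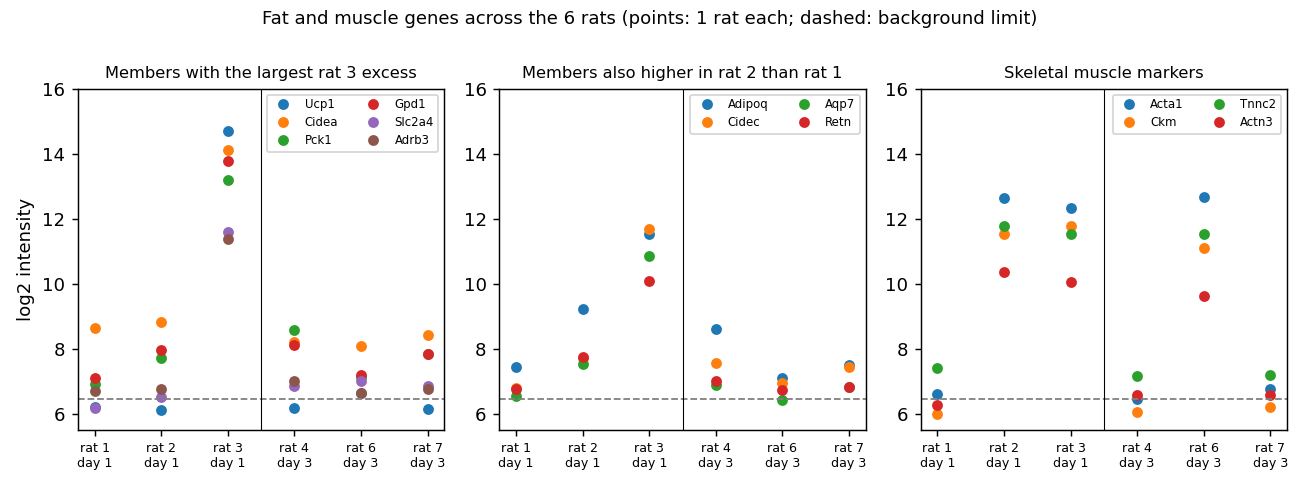
Log2 intensity (y axis) in each rat (x axis, day 1 left and day 3 right of the line) for 6 members with a large rat 3 excess, 4 members also higher in rat 2 than in rat 1, and 4 skeletal muscle markers. Rat 3 alone is high in the left panel, for example 14.70 for Ucp1, while rats 2, 3 and 6 are high in the muscle panel.

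The comparison of day 3 with day 1 asks how expression in the implant tissue shifts as it grows. With all 6 rats, 5 members fell, 0 rose and 27 did not pass, among the 32 tested (limma, adjusted p under 0.05). The 5 are 15.6% of the tested members, against 10.1% of 11954 tested probes that fell; 12.7% of probes rose, and 22.8% passed in either direction. At an unadjusted p under 0.05, 0 members were higher and 7 lower at day 3, against 19.2% and 15.9% of tested probes, and the other two lower members were Plin2 and G0s2. The plain test without moderation gave 0 that rose and 3 that fell, without Dgat1 (adjusted p = 0.141) and Dgat2 (adjusted p = 0.0558). The median difference over the 32 was -0.94, against -0.01 over all tested probes, and 29 of 32 differences were negative. In 9 of the 32 every day 3 rat lay below every day 1 rat, against 18.1% of probes, and in 0 above, against 22.0% (40.1% of probes in either direction).

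The 5 members that fell are enzymes of triglyceride synthesis and receptors of adiponectin. Of the 11 adipocyte-restricted genes 8 were tested and 0 fell, against 10.1% of tested probes. So few genes cannot show whether these shares differ. Dgat2, which adds the last fatty acid to triglyceride, was 13.28, 13.25 and 13.82 at day 1 and 10.93, 11.69 and 10.15 at day 3. Its mean went from 13.45 ± 0.32 to 10.92 ± 0.77 (SD, n = 3 rats per day), a 5.76-fold fall (log2 difference -2.53, SE 0.38, adjusted p = 0.00642, limma). The days did not overlap, and rats 1 and 2 averaged 0.56 below rat 3. Without rat 3 Dgat2 fell by 2.34 (SE 0.39, adjusted p = 0.00474).

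Dgat1, the other enzyme of that step, was 11.71, 11.50 and 12.72 at day 1 and 10.87, 10.86 and 10.79 at day 3. It fell by 1.13 (SE 0.30, adjusted p = 0.0394, limma). The call was lost without rat 1, 4, 6 or 7, with adjusted p of up to 0.118, and without rat 3 the fall was 0.76 (SE 0.11, adjusted p = 0.00294). Lpin2, the phosphatase before that step, was 7.51, 7.39 and 7.25, then 6.65, 6.65 and 6.81, and fell by 0.68 (SE 0.11, adjusted p = 0.00807, limma). Without rat 3 the adjusted p of Lpin2 was 0.00315, with a difference of -0.745.

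Adipor2, an adiponectin receptor prominent in liver, was 9.09, 9.13 and 9.48 at day 1 and 8.37, 8.21 and 8.38 at day 3. It fell by 0.91 (SE 0.13, adjusted p = 0.00577, limma), and by 0.79 without rat 3. Adipor1, the receptor found in most tissues, was 13.33, 13.22 and 13.18, then 12.78, 12.67 and 12.63, and fell by 0.55 (SE 0.10, adjusted p = 0.01, limma), and by 0.58 without rat 3. Dgat2, Lpin2, Adipor1 and Adipor2 passed in each of 6 refits that left out 1 rat, and Lpin2, Adipor1 and Adipor2 also under the plain test. Neutrophil and macrophage markers moved between the same days: 9 of 11 tested neutrophil markers fell, while 5 of 11 macrophage markers rose and 2 fell. Their part in the falls of these members was not tested.

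**Figure D3:**
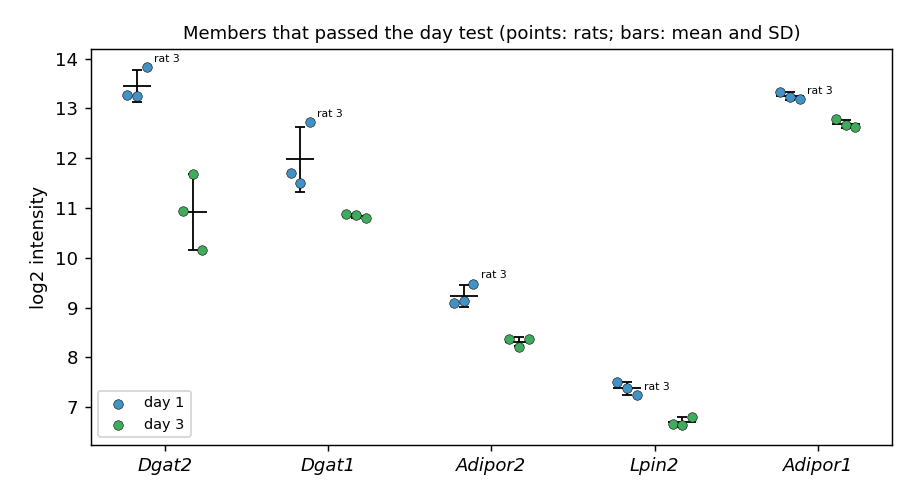
Log2 intensity (y axis) of the 5 members that passed the day test, with 1 point per rat, and bars for the mean and SD of 3 rats per day (blue day 1, green day 3). The days do not overlap in any of the 5, and rat 3, marked, is the top day 1 point for Dgat2, Dgat1 and Adipor2 and the lowest for Lpin2 and Adipor1.

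Without rat 3 the tested members gave 4 that rose and 7 that fell, and the median difference was -0.02. These shares, 12.5% rising and 21.9% falling, compare with 16.3% and 15.4% of all tested probes in the same fit, 31.7% in either direction. The number of members with a negative difference went from 29 to 17 of 32, and 12 went from negative to positive. The SE of Gpd1 went from 1.64 to 0.33 and that of Cidec from 1.18 to 0.29.

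The 4 that rose without rat 3 were Mgll, Lpl, Slc2a4 and Lipe. Mgll rose by 0.92 (SE 0.16, adjusted p = 0.00511, limma), against a difference of -0.13 (SE 0.83) with all rats. Lpl rose by 0.64 (SE 0.20, adjusted p = 0.0498), Slc2a4 by 0.57 (SE 0.13, adjusted p = 0.0171) and Lipe by 0.44 (SE 0.13, adjusted p = 0.0425). Each had day 3 rats above rats 1 and 2 and below rat 3. Slc2a4 lay below the background limit in rat 1, at 6.16, and close to it in rat 2, at 6.51. Besides the 5 named above, Agpat2 fell by 0.75 (SE 0.16, adjusted p = 0.0128) and Cidea by 0.48 (SE 0.14, adjusted p = 0.0347). These calls compare 2 rats with 3 and did not pass with all 6. Rat 3 was singled out after its high levels in these genes were known. The adjusted p of these calls therefore cannot be taken at face value.

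Other fat-restricted members did not pass in either fit. Without rat 3, Adipoq differed by -0.61 (SE 0.58, adjusted p = 0.495, limma), Cidec by 0.06 (SE 0.29), Pck1 by 0.55 (SE 0.42), Aqp7 by -0.34 (SE 0.28), Adrb3 by 0.07 (SE 0.13) and Acvr1c by 0.19 (SE 0.15). With all rats the same genes had differences from -0.97 (Acvr1c) to -1.68 (Adipoq), with SE from 0.91 to 1.57. Angptl4, Cav1, Irs1 and Pde3b had differences between -0.29 and 0.27 without rat 3 and passed in neither fit.

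**Figure D4:**
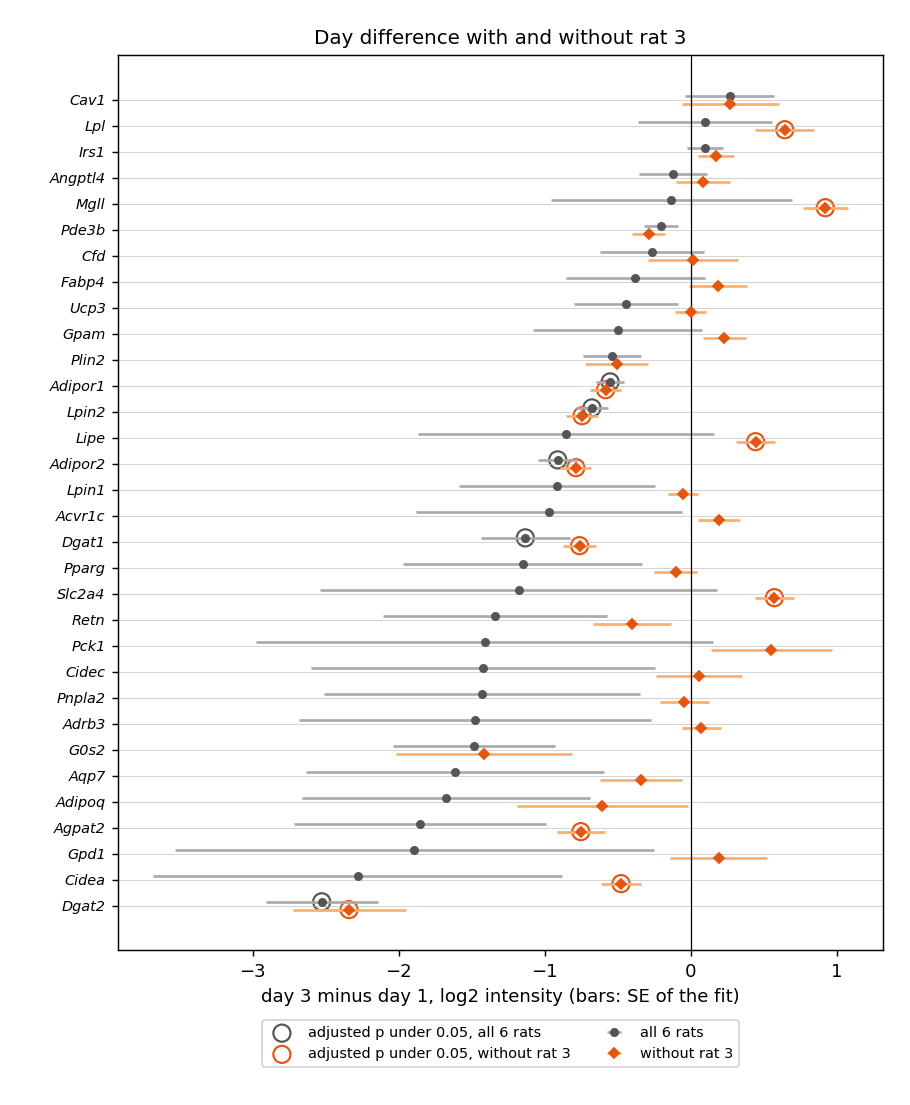
Day 3 minus day 1 on the log2 scale (x axis, bars SE of the fit) for the 32 tested members, with all 6 rats (grey circles) and without rat 3 (orange diamonds); rings mark an adjusted p under 0.05. With all rats 5 members are ringed, all below 0; without rat 3, 7 are ringed below 0 and 4 above.

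Genes that work beside these members showed the same animal. Of 15 fatty acid synthesis genes 12 had a probe, rat 3 exceeded each other rat by more than 1 in 7, and in the day test of 10 genes 2 rose and 2 fell (2 and 4 without rat 3). Thrsp, a regulator of lipid synthesis, had the second largest excess on the array, at 15.06 in rat 3 against 7.68 and 9.03 in rats 1 and 2, and Acly, which supplies acetyl-CoA, was 13.48 against 9.46 and 9.53. Scd, a desaturase, fell by 3.67 (SE 0.68, adjusted p = 0.0124, limma; 0.0520 without rat 7), and without rat 3 it fell by 2.83. Elovl5, an elongase, fell by 0.45, and the desaturases Fads1 and Fads2 rose by 1.22 (SE 0.20) and 0.48 (SE 0.12). Elovl5 and Fads2 each passed in 1 of 6 refits without 1 rat, that without rat 3, and the adjusted p reached 0.145 for Elovl5 without rat 2 and 0.13 for Fads2 without rat 6. Scd2, a second desaturase, was 12.07 to 12.95.

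Of 16 fat cell transcription factors outside the set 14 had a probe, rat 3 was highest in 12, and it exceeded each other rat by more than 1 in 4. Rxrg, a retinoid receptor that pairs with Pparg, was 10.13 in rat 3 against 6.86 and 6.93 in rats 1 and 2, and Srebf1, a regulator of lipid synthesis, was 12.40 against 9.86 and 9.93. Among 11 tested factors 0 rose and 2 fell with all rats, and 3 rose and 5 fell without rat 3. Cebpb, an early factor of fat cell formation and of inflammation, fell by 1.07 (SE 0.12, adjusted p = 0.00249, limma; 0.00154 without rat 3) and at day 1 was near the top of the range, at up to 15.03. Klf9, a glucocorticoid-induced factor, was 10.11 to 10.75, and Rxra fell by 0.55 (SE 0.10; adjusted p = 0.0506 without rat 6).

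Of 27 further fat cell genes 16 had a probe, rat 3 was highest in 13, and it exceeded each other rat by more than 1 in 10. Pc, pyruvate carboxylase, was 12.69 in rat 3 against 7.30 and 7.66, and Orm1, an acute phase protein, was 11.07 against 6.73 and 6.65. Of the 13 tested, Apoc1 alone, a small apolipoprotein of macrophages and liver, passed the day test with all rats. It rose by 0.91 (SE 0.23, adjusted p = 0.0323, limma), and by 0.64 without rat 3. Without rat 3, 2 rose and 0 fell, and the second was Aoc3. It rose by 1.82 (SE 0.20, adjusted p = 0.00097, limma) in that fit, against 0.40 (SE 1.11) with all rats. That call rests on leaving out a rat chosen for its high fat cell genes. Apoc1 passed in 2 of 6 refits without 1 rat, with adjusted p of up to 0.107 without rat 6. Cd36, a fatty acid receptor, and Hsd11b1, which activates glucocorticoid, were 11.23 to 13.13 and 11.67 to 12.04.

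Progenitor and insulin signalling genes did not carry the rat 3 excess. Of 9 measured adipose progenitor genes rat 3 was highest in 1, and of 8 tested 3 rose and 2 fell, with the same counts without rat 3. Pdgfra, a growth factor receptor of fibroblasts and fat progenitors, rose by 1.42 (SE 0.14, adjusted p = 0.00184, limma), with Dpp4 (0.80, SE 0.19) and Cd34 (0.37, SE 0.10) also rising. Icam1, an adhesion molecule, fell by 1.26 (SE 0.19), and the coagulation receptor F3 by 1.00 (SE 0.23). Of 6 refits without 1 rat, Cd34 passed in 1, F3 in 2 and Dpp4 in 3, with adjusted p of up to 0.142 (rat 6), 0.0837 (rat 7) and 0.0929 (rat 6). Of 5 tested insulin signalling genes outside the set 0 rose, and Ptpn1, a phosphatase acting on the insulin receptor, fell by 0.69 (SE 0.15, adjusted p = 0.0190, limma). Ptpn1 passed in 1 of 6 refits without 1 rat, that without rat 3 (adjusted p = 0.00165), and reached 0.0746 without rat 6. The kinases Akt1 and Akt2 had the largest rat 3 excess of the 8 measured, at 0.47 and 0.76.

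Markers of most other cells gave no comparable excess of rat 3 over each other rat. Rat 3 exceeded each other rat by more than 1 in 0 of 12 muscle, 0 of 12 macrophage, 0 of 8 mast cell, 0 of 9 endothelial, 0 of 9 fibroblast and 0 of 7 keratinocyte markers with a probe. It did so in 1 of 15 neutrophil markers, Mpo, and in 1 of 4 nerve sheath markers, S100b, a calcium-binding protein that fat cells also make. Mpo was 9.52 in rat 3 and 6.74 to 7.38 elsewhere. Against the mean of rats 1 and 2 alone, muscle markers had a median rat 3 excess of 1.38 and a largest of 3.02. Rats 2 and 6 were also high in muscle markers. In the day test 9 of 9 fibroblast, 5 of 7 endothelial, 3 of 3 keratinocyte and 1 of 3 nerve sheath markers rose, 7 of 7 mast cell markers fell, and 0 of 10 muscle markers passed.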

How the data were processed

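RNA of 6 rats was measured on Illumina rat arrays, 3 per day, from 100 ng of RNA each per the labels. The values are the authors' deposited intensities on a linear scale, quantile normalised as the values show (sorted arrays differ by over 0.01 at 61 of 22517 ranks). The submitters' processing notes name limma, with no scanner settings given in the sources used here. The other deposited table was left out, because none of its 12 column names could be tied to a rat.

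Intensities were corrected with normexp (offset 50), quantile normalised and put on the log2 scale. The background limit, 102 in intensity, is the 95th percentile of a normal curve through the mode (86.5) and the spread below it. Probes above it on at least 3 of 6 arrays (11954) were fitted with limma 3.58.1 in R 4.3.3, unpaired, with a two-sided moderated test and Benjamini-Hochberg adjustment over all of them. The number of arrays limits the precision. A gene is shown by its tested probe with the highest mean; 3 members had 2 probes. Fold changes are read from the log2 scale. Of the probes 13787 had 1 gene symbol, 0 several and 8730 none. The script was tested on simulated data.

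The members and gene lists were chosen with earlier results of these data known. Named were every member, and for the related lists up to 3 genes past the threshold per direction, the 2 largest rat 3 excesses and the 2 brightest by their mean over the 6 arrays, while lists of other cell types are given as counts. The list of heat-producing fat genes, the sum without Cfd, Cox8b, Mpo, S100b and Aoc3 were chosen after seeing values. Alternatives covered background correction, normalisation, filter, variance model, array weights, plain tests, probe choice and each rat left out.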

Additional observations from a re-analysis of the deposited data

How the results depend on the processing

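The number of array probes past the threshold was 2724 with all rats, 1099 under the plain test without moderation, and from 1300 to 3791 with 1 rat left out, with 1300, 1339 and 1459 without rats 2, 6 and 7. Members that fell numbered 5, and 3 under the plain test, where Dgat1 and Dgat2 were lost (adjusted p = 0.141 and 0.0558). They ranged from 4 to 7 with 1 rat left out, and members that rose from 0 to 4, with 4 without rat 3. The median member difference of -0.94 ran from -1.43 to -0.02 with 1 rat left out. Dgat1 also missed with no filter on dim probes (adjusted p = 0.0569). The rat 3 excess over the members, 2.05, was 2.70 with offset 16, since a smaller offset widens differences of dim genes by construction. Signs turned only among members short of the test with all rats. With array weights (0.262 for rat 3, 0.689 to 2.54 for the others) differences became 0.73 for Mgll, 0.17 for Lipe, 0.15 for Slc2a4 and 0.040 for Fabp4, and with cyclic loess -0.030 for Lpl. With 1 rat left out they ran from -0.75 to 0.92 for Mgll, -2.14 to 0.57 for Slc2a4, -2.59 to 0.55 for Pck1, -1.51 to 0.44 for Lipe, -0.91 to 0.23 for Gpam, -1.58 to 0.19 for Acvr1c, -3.16 to 0.19 for Gpd1, -0.78 to 0.19 for Fabp4, -0.31 to 0.085 for Angptl4, -2.27 to 0.071 for Adrb3, -2.39 to 0.056 for Cidec and -0.60 to 0.017 for Cfd, each highest without rat 3. Lpl ran from -0.32 (without rat 1) to 0.64 (without rat 3), and Cav1 from -0.094 (without rat 6) to 0.54 (without rat 7). The cause of these turns was not tested beyond the array left out or weighted. No paired analysis was possible because the rats of the 2 days share no number. Levels near the limit of 6.44 and near 15.47 are compressed by background and by the top of the range.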
